A study of Mus musculus with 8 samples.

Results

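miR-31 and miR-31* (mmu-miR-31 and mmu-miR-31* in the array files), both arms of 1 microRNA hairpin, were followed on 8 arrays of mouse liver RNA. They are 2 of the 577 miRNAs with probes on the array and were taken by name. They had been chosen by their difference between the strains on these same arrays, both being higher in the diabetic animals. The difference between the strains is therefore described below and not tested. Livers of 4 db/db mice, which lack a working leptin receptor and become obese and diabetic, were set against livers of 4 db/+ mice, which carry 1 normal copy and stay lean and nondiabetic. The labels give C57BL/KsJ as the background of the db/db mice. Ages of the animals were not given in the sources used here. The missing receptor acts in the whole body, and RNA came from whole liver, so the cells that hold miR-31 cannot be told from these data.

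microRNAs are cut from a folded precursor as a pair of strands. One strand, the guide, is loaded into an Argonaute protein and pairs through its seed, bases 2 to 8, with messenger RNAs whose translation or stability it lowers. The other, the passenger or star strand, is mostly degraded. miR-31 is the guide of its hairpin and is known from epithelium, muscle stem cells, fibroblasts and regulatory T cells, where it has been tied to migration, differentiation and immune regulation. It is not among the miRNAs known as abundant in hepatocytes.

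The mature arms are shown first, because the seed sets which transcripts each can bind and because their 3′ parts carry the array probes. Sequences are those of RefSeq (GRCm38.p6, minus strand of chromosome 4), with the seed in capitals.
miR-31: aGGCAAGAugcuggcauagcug
miR-31*: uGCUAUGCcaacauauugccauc
No other of the 1678 mature mouse miRNAs of that table has either seed, so neither arm has a seed family there. The precursor is shown to place the arms on the hairpin, with both arms in capitals.
Mir31 hairpin: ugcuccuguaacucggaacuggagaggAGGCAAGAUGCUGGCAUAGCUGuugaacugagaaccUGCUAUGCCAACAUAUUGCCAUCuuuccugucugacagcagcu
The longest stretch in which the arms are complementary without a break is 9 bases, bases 12 to 20 of miR-31 against bases 2 to 10 of miR-31*.

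Each arm was measured by 2 probes of 10 spots each. In mm9, the build of the array files, the miR-31 probes cover chromosome 4 from 88556518 to 88556534 (probe A_54_P1322, 17 bases) and from 88556518 to 88556533 (A_54_P1323, 16 bases). The miR-31* probes cover 88556481 to 88556499 (A_54_P3475, 19 bases) and 88556481 to 88556498 (A_54_P3474, 18 bases). The intervals of the arms start 37 bases apart, as do the 3′ ends of miR-31 and miR-31* in RefSeq. If the intervals begin at those ends, the longer probes cover the letters in capitals here, shown because they leave out part of the seed.
A_54_P1322 on miR-31: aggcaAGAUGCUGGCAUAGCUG
A_54_P3475 on miR-31*: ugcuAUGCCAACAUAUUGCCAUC
The longest run that such a stretch shares with any other mature mouse miRNA is 9 bases for A_54_P1322, with miR-1941-5p, and 8 bases for A_54_P3475, with miR-6958-3p. By the RefSeq gene records, used for names only, Mir31 lies inside the long noncoding RNA gene Gm49890, between the interferon gene Ifne and Mtap, an enzyme gene of methionine salvage. The 1 other miRNA of the array within 1 megabase, miR-491, was detected on 0 of 8 arrays, so the array gave no second miRNA with which to follow the region.

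The arrays differed in brightness before scaling, by factors of 0.21 to 5.63 in db/+ and 0.85 to 1.06 in db/db, with db/+ replicate 1 the brightest and db/+ replicate 4 the dimmest. All 8 shared 1 slide on which row 1 held only db/db and row 2 only db/+, so an effect of the row and one of the strain cannot be told apart. miR-31 was detected on all 8 arrays, and miR-31* on all 4 db/db arrays and on db/+ replicates 1 and 3. On db/+ replicate 4 none of the 20 miR-31 spots was well above background, and on db/+ replicate 2 11 of 20 were, against 20 of 20 on the other 6 arrays. The number of arrays, and on these db/+ arrays the signal over background, limits the precision.

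miR-31 was higher in every db/db liver than in every db/+ liver. On the log2 scale of scaled signal, where each array is divided by the median of the miRNAs detected throughout, the db/+ arrays stood at 5.90, 5.98, 6.24 and 5.87 in replicates 1 to 4. The db/db arrays stood at 7.11, 7.00, 7.46 and 6.79. The lowest db/db array thus lay 0.56 above the highest db/+ array, which is 1.47-fold. Means were 6.0 ± 0.17 (SD, n = 4) in db/+ and 7.09 ± 0.28 (SD, n = 4) in db/db, a difference of 1.09 ± 0.17 (SE) or 2.14-fold. The spread within each strain was small beside the difference, and the db/+ values differed by 0.37 although the brightness of those arrays ranged far more widely. In whole liver a gain of cells that hold miR-31 and more miR-31 per cell cannot be told apart.

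**Figure D1:**
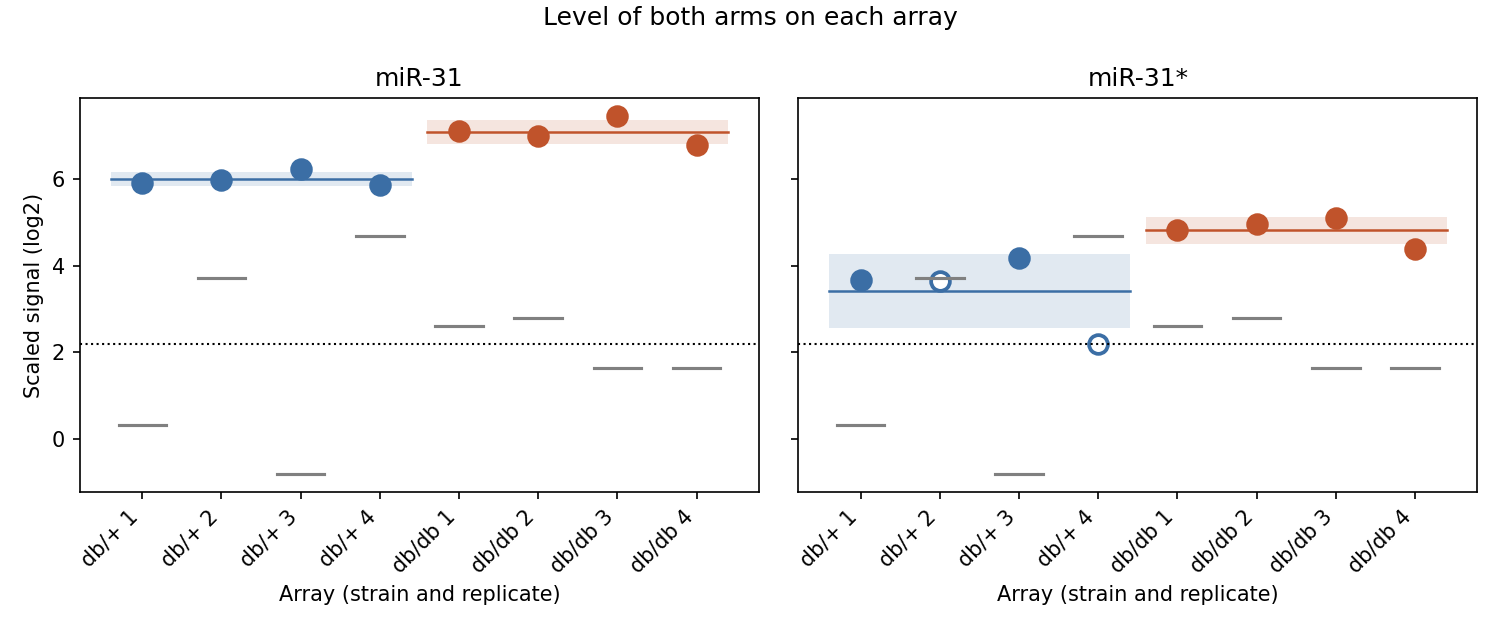
Scaled signal (log2) of miR-31 and miR-31* on each of the 8 arrays, db/+ in blue and db/db in orange; open circles mark arrays on which the miRNA was not detected, grey ticks the lowest signal of any detected miRNA on that array, the dotted line the floor of 2.20, and lines with bands the strain mean ± SD (n = 4). miR-31 stands at 5.87 to 6.24 in db/+ and 6.79 to 7.46 in db/db, and the 2 open circles of miR-31* are db/+ replicates 2 and 4.

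The separation rested on scaling the arrays. Before it, the signal of miR-31 was 337, 35.5, 119 and 12.3 on the db/+ arrays and 117, 136, 175 and 118 on the db/db arrays. These ranges overlap, with db/+ replicate 1 the highest array and db/+ replicate 4 the lowest. A view that needs no scaling is the place of miR-31 among the 89 miRNAs detected on all 8 arrays, counted from the brightest. It was 77, 83, 68 and 80 in db/+ and 58, 60, 55 and 65 in db/db, so that miR-31 stood nearer the bright end on each db/db array than on any db/+ array. Probes differ in how well they bind, so a place says nothing of how abundant miR-31 is next to other miRNAs, and it is read here only between arrays.

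Both miR-31 probes gave the same picture. The longer, A_54_P1322, had 6.52 ± 0.11 (SD, n = 4) in db/+ and 7.61 ± 0.27 (SD, n = 4) in db/db, a difference of 1.08, and its strains lay 0.62 apart at the nearest. The shorter, A_54_P1323, had 5.14 ± 0.34 and 6.28 ± 0.29 (SD, n = 4 each), a difference of 1.14, and its strains lay 0.40 apart. The signal of the longer over that of the shorter, before scaling, was 2.43 to 2.58 on the db/db arrays and 2.47, 2.66, 2.13 and 3.28 on db/+ replicates 1 to 4. It thus lay between 2.43 and 2.66 on 6 arrays, and outside on db/+ replicates 3 and 4. Spots of A_54_P1322 varied by 4.19% to 9.11% (SD over mean) on 7 arrays and by 29.5% on db/+ replicate 4. On that array the spots of A_54_P1323 varied by 104% and 2 of its 10 spots lay below 0 after background subtraction, so its value there was poorly measured.

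**Figure D2:**
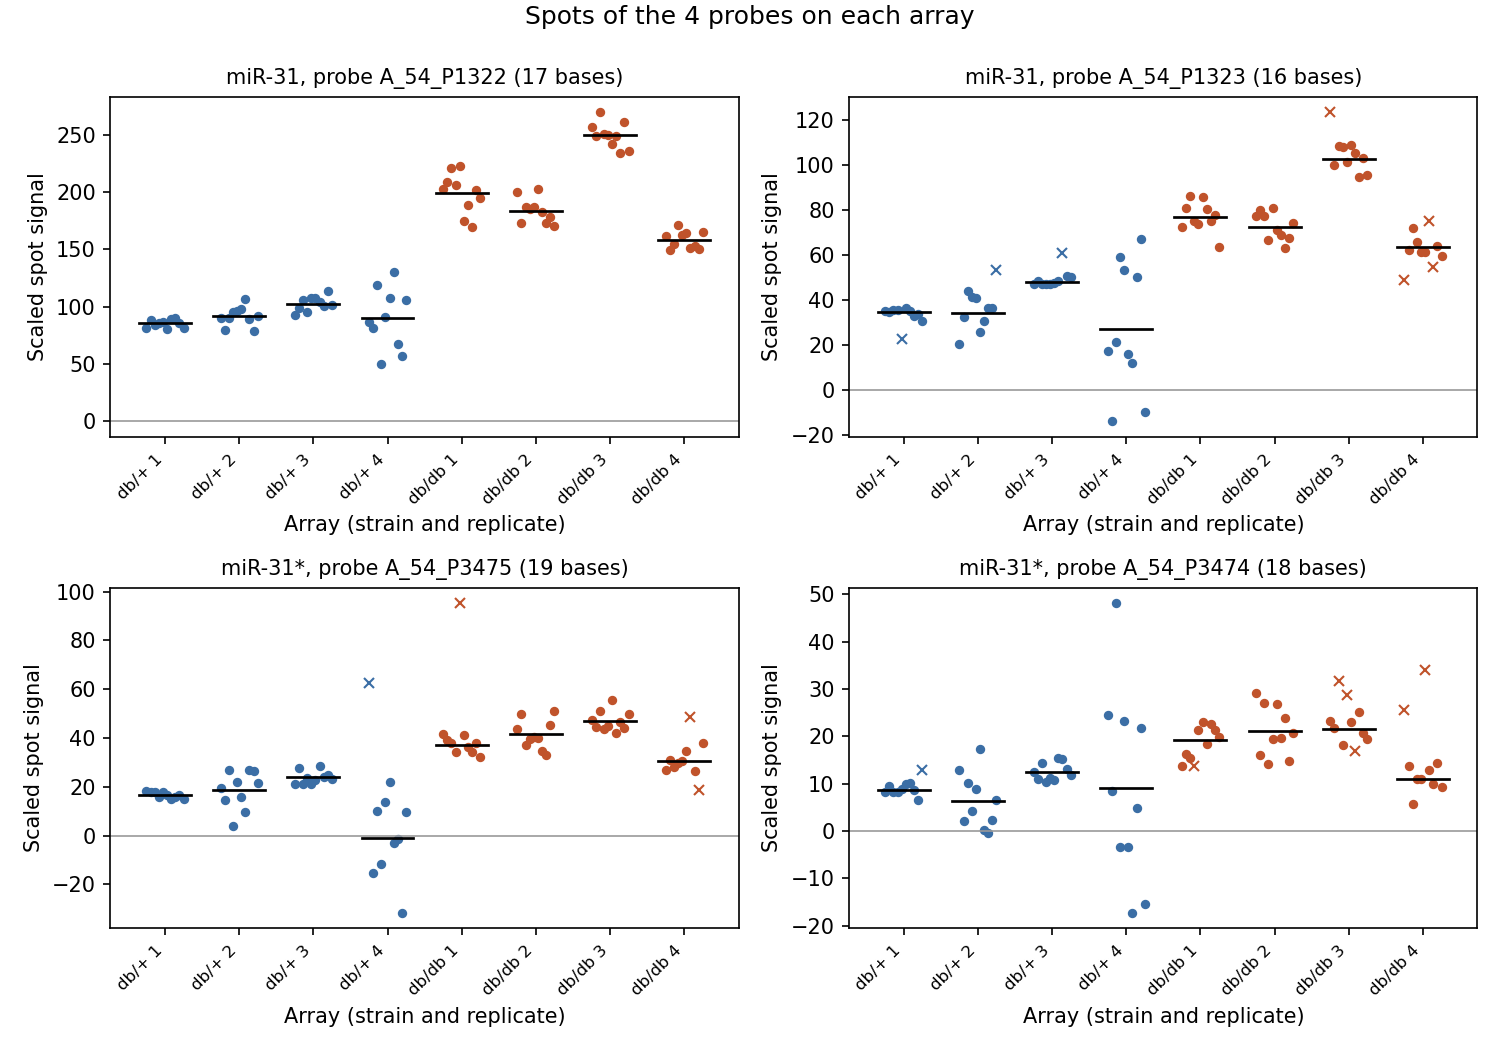
Scaled signal of every spot of the 4 probes on each array, on a linear axis that differs between panels; dots are the spots used, crosses the outlier spots left out, and black bars the mean of the spots used. Spots scatter most on db/+ replicate 4, where spots of 3 of the 4 probes fall below 0, and the db/db means of both miR-31 probes lie above all db/+ means.

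The passenger strand was also higher in db/db, near the limit of what the arrays measured. miR-31* stood at 3.66, 3.65, 4.18 and 2.20 on db/+ replicates 1 to 4 and at 4.82, 4.97, 5.10 and 4.38 on db/db replicates 1 to 4. The strains did not overlap, but the highest db/+ array and the lowest db/db array were only 0.19 apart. The value of db/+ replicate 4 is the floor to which low signals were set, since its signal before scaling was 0.875, and db/+ replicate 2 lay just under the lowest signal of any detected miRNA on that array, 3.71. Means were 3.42 ± 0.85 and 4.82 ± 0.32 (SD, n = 4 each), a difference of 1.39 ± 0.38 (SE), which takes in these undetected arrays and is not a firmly measured size. Over the 2 db/+ arrays that detected miR-31* the difference was 0.89, and that of miR-31 against the same arrays was 1.02. With the floor raised to 4.70, the highest of the arrays' lowest detected signals, it was 0.20, and the strains overlapped.

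The miR-31* probes differed more than those of miR-31. A_54_P3475 had 3.76 ± 1.07 (SD, n = 4) in db/+ and 5.27 ± 0.26 (SD, n = 4) in db/db, and its strains did not overlap. On db/+ replicate 4 its 9 spots in use averaged -0.175 before scaling, with 5 of them below 0. A_54_P3474 had 3.16 ± 0.40 and 4.14 ± 0.46 (SD, n = 4 each), and its strains overlapped, as 3 of 4 db/db arrays lay above every db/+ array. The array in the overlap was db/db replicate 4, at 3.45, where 2 of the 10 spots had been left out as outliers.

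The arms kept nearly the same ratio wherever both were detected. The log2 ratio of miR-31 over miR-31* was 2.24 and 2.05 on db/+ replicates 1 and 3 and 2.29, 2.03, 2.36 and 2.42 on the db/db arrays. Both db/+ values lay inside the range of the 4 db/db values, which spanned 0.39. db/+ replicate 2, where miR-31* was not detected, gave 2.32. db/+ replicate 4 gave 3.67, a value set by the floor of 2.20. The lowest detected signal of that array was 4.70, so a smaller ratio there is possible. Over all arrays the ratio was 2.57 ± 0.74 in db/+ and 2.28 ± 0.17 in db/db (SD, n = 4 each), a difference of -0.30 ± 0.38 (SE), smaller than its error. Without db/+ replicate 4 the difference was 0.07, and where both arms were detected it was 0.13. A change in the ratio of the arms was thus not detectable on these arrays, and its direction turned with that 1 array. The ratio itself says nothing of which arm is more abundant, since their probes differ.

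**Figure D3:**
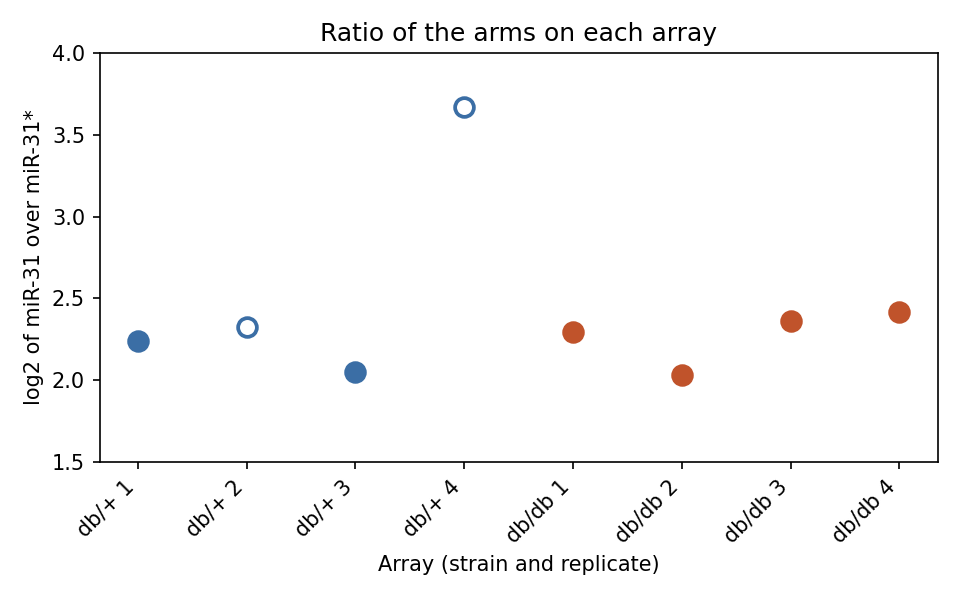
log2 ratio of miR-31 over miR-31* on each array (axis from 1.5 to 4.0), db/+ in blue and db/db in orange; open circles mark arrays on which miR-31* was not detected. All arrays lie between 2.03 and 2.42 except db/+ replicate 4 at 3.67, where miR-31* was set to the floor.

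The arms moved together from liver to liver only in part. db/db replicate 3 was the highest db/db array for both arms and db/db replicate 4 the lowest. In db/+ replicate 3 was the highest and replicate 4 the lowest for both, though miR-31* was at the floor on replicate 4. Replicates 1 and 2 changed order between the arms in each strain. In db/db they had 7.11 and 7.00 for miR-31 but 4.82 and 4.97 for miR-31*. In db/+ they had 5.90 and 5.98 for miR-31 but 3.66 and 3.65 for miR-31*. Over the 8 arrays the levels of the arms had a Pearson correlation of 0.86, and of 0.60 after each strain's mean was taken out. These are descriptions of 8 arrays that share their scaling, and 1 of the miR-31* values is the floor.

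How strongly the fold depended on the processing differed between the arms. The difference of miR-31 was above 0 in all 24 other settings tried, from 0.37 to 1.19, and its strains stayed apart in 21 of them. The 3 exceptions were no scaling (1.06), normexp background correction (0.37) and the raw median intensities (0.44). Leaving arrays out or weighting them could not make strains that were apart overlap. Nor could the floors, which lay below every miR-31 value, or the scanner's total signal per miRNA, which gave the same difference. Settings that could but did not were 75th percentile scaling, quantile normalization, cyclic loess, the deposited scores, averaged log2 probe values and kept outlier spots. The difference of miR-31* was above 0 in 22 of 24, with -0.45 under normexp and -0.18 with the raw medians. Its strains stayed apart in 17. They overlapped with 75th percentile scaling, cyclic loess, no scaling, the higher floor, normexp, the raw medians and the deposited scores. Of the settings that could make the strains of miR-31* overlap, only quantile normalization, averaged log2 probe values and kept outlier spots did not. In the authors' deposited table of scores, a log of unstated base, miR-31 had 1.47, 1.45, 1.54 and 1.19 in db/+ and 1.66, 1.67, 1.75 and 1.57 in db/db. There too the lowest db/db liver lay above the highest db/+ liver for miR-31. For miR-31* the deposited scores overlapped, with 1.13 in db/db replicate 4 below 1.14 in db/+ replicate 3.

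**Figure D4:**
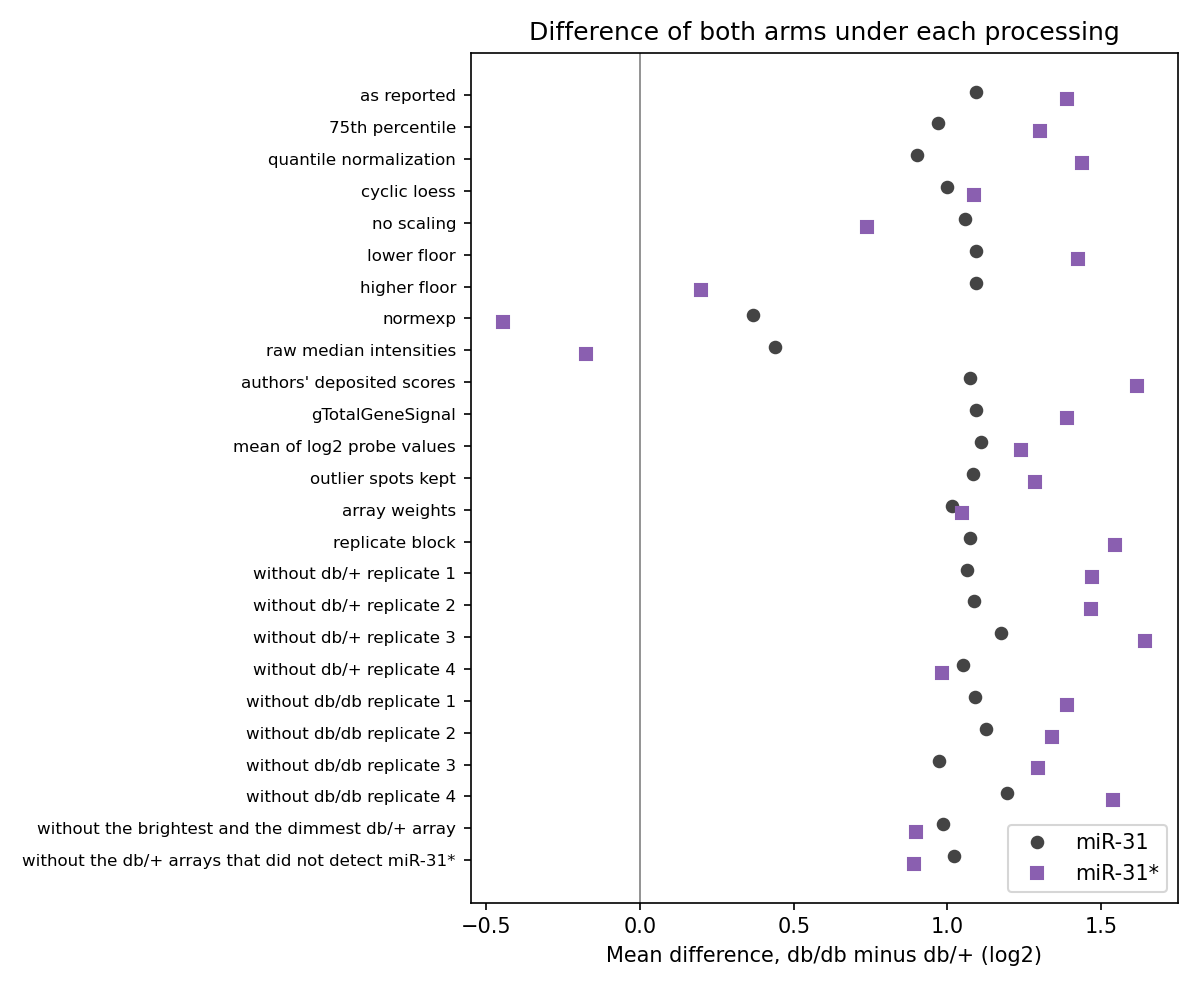
Mean difference between the strains, db/db minus db/+ on the log2 scale, of miR-31 (circles) and miR-31* (squares) under each processing; the vertical line marks 0. miR-31 stays above 0 throughout and lowest under normexp (0.37) and raw median intensities (0.44), whereas miR-31* falls to -0.45 and -0.18 there.

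Against the other miRNAs, limma called 19 of the 127 tested at an adjusted p under 0.05, a share of 15%, with 12 higher (9.45%) and 7 lower (5.51%). Both arms were among the 12, which is how they came to be chosen, so their calls are no test of them. miR-31*, detected on 2 of the 4 db/+ arrays and on 4 db/db arrays, entered the fit through the db/db arrays alone. miR-31 was not among the calls with no scaling, normexp, the raw medians, the deposited scores, no filter or the replicate block. miR-31* was not among them with 75th percentile scaling, quantile normalization, no scaling, the higher floor, normexp, the raw medians, the deposited scores or no filter, nor without db/+ replicate 2, without db/db replicate 1, 2 or 3, without db/+ replicates 1 and 4 or without db/+ replicates 2 and 4. It was not tested where detection on all 8 arrays was asked for. The split was 6 higher and 8 lower with 75th percentile scaling and 10 higher and 11 lower with cyclic loess. The median of the 127 differences lay at 0.15, so the differences of the arms stand above a small common shift. Every db/db array lay above every db/+ array for 20 of the 127 (15.7%), the arms included, and the strains were apart in either direction for 22.8%. Some of the 127 entered through the db/db arrays alone. Among the 89 detected on all 8 arrays, every db/db array lay above every db/+ array for 12 (13.5%), miR-31 included. Of these 89, limma called 8 higher and 6 lower.

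miR-31 is one of the miRNAs found in fibroblasts and smooth muscle. Of 13 listed mesenchymal miRNAs 6 were tested, among them miR-31, and 0 of the other 5 passed limma in either direction; their median difference was 0.26. With 15% of all 127 called, a count of 0 among 5 says nothing particular of the group. All of the 5 but miR-199b were detected on 3 of the 4 db/+ arrays and on 4 db/db arrays. They entered the test through the db/db arrays alone, so the median gives no support. miR-199b, detected on all 8 arrays, was at -0.05. The largest difference among the 5 was that of miR-214, known from activated stellate cells, at 0.64 ± 0.25 (SE, limma adjusted p = 0.143). The summed signal of the 4 stellate and smooth muscle markers on the array lay between 6.11 and 6.65 (log2) in db/+ and between 6.49 and 6.87 in db/db, and the strains overlapped. None of these 4 was detected on all 8 arrays.

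Among epithelial miRNAs, which in liver mark bile duct cells, 2 of the 3 tested members passed, both higher, against 9.45% of all 127 called higher. All 3 were detected on 3 of the 4 db/+ arrays and on 4 db/db arrays, so they entered the test through the db/db arrays alone and their count gives no support. Among miRNAs detected on all 8 arrays 0 of them were left. miR-200b had a difference of 0.81 ± 0.16 (SE; limma adjusted p = 0.0079) and miR-203, an epithelial differentiation miRNA, 0.94 ± 0.25 (SE; limma adjusted p = 0.0281). The summed bile duct markers, 4 of 4 on the array and none detected on all 8 arrays, lay between 5.74 and 6.02 in db/+ and between 6.25 and 6.62 in db/db, without overlap. The sum was higher in db/db, as miR-31 was, and the part of these markers in its difference was not tested. With normexp miR-200b and miR-203 were at -0.31 and -0.03. The limma call of miR-203 was lost in 15 other settings with the sign kept, among them 75th percentile scaling (adjusted p = 0.0761), quantile normalization (0.0887), cyclic loess (0.0517) and the replicate block (0.0564). That of miR-200b was lost in 5 with the sign kept, among them the replicate block (limma adjusted p = 0.18). Over all settings the limma adjusted p ran from 0.0131 to 0.993 for miR-203 and from 0.00070 to 0.993 for miR-200b.

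Of 4 tested leukocyte miRNAs 2 fell and 0 rose, against 5.51% of all 127 called lower: miR-142-3p by 1.10 and miR-223 by 0.74 on the log2 scale (limma adjusted p = 0.0164 and 0.0434), both made mainly in blood-forming cells. The call of miR-142-3p was lost in 12 other settings and that of miR-223 in 15, with the sign kept. With the replicate block the limma adjusted p was 0.052 and 0.173, with the higher floor 0.0527 and 0.0801, without db/+ replicate 2 0.0578 and 0.0885, and without db/db replicate 2 0.0557 and 0.137. Over all settings it ran from 0.00309 to 0.993 for miR-142-3p and from 0.0185 to 0.993 for miR-223. The 4 summed leukocyte markers lay between 8.52 and 8.94 in db/+ and between 7.62 and 8.13 in db/db, opposite to miR-31, and their part in its difference was not tested. The 6 tested hepatocyte miRNAs gave 0 calls in either direction, with a median of 0.12. Their summed markers, with miR-122, the main miRNA of hepatocytes, detected on every array, lay between 14.9 and 16.1 in db/+ and between 15.6 and 15.8 in db/db.

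Of 114 star strands on the array 39 were detected on any array and 9 were tested. The 8 besides miR-31* had a median of 0.25, and 0 passed, where the share called over all 127 was 15%, so a count of 0 among 8 says nothing particular of passenger strands. The nearest were miR-140* at 0.48 ± 0.15 (SE; limma adjusted p = 0.0543) and miR-378* at 0.80 ± 0.28 (SE; limma adjusted p = 0.102). In some other settings 1 of the 8 did pass limma, as with the higher floor, the deposited scores and the miRNAs detected on all 8 arrays. With array weights miR-140* and miR-378* both passed (limma adjusted p = 0.0196 and 0.0054). A star strand could be tested through the db/db arrays alone, so the sign of those 9 gives no support.

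The miRNAs whose level followed that of miR-31 most closely over the 8 arrays, among the 88 others detected throughout, were miR-103 (Pearson r = 0.91), miR-378 (0.90), miR-194 (0.88), miR-365 (0.87) and miR-125b-5p (0.86). Those that ran most opposite were let-7e (-0.97), miR-21 (-0.90), miR-705 (-0.90), miR-125a-5p (-0.86) and miR-223 (-0.86). The arrays share their scaling and fall into the strains, and with the strain means taken out the values were 0.28 for miR-103, 0.34 for miR-378 and 0.0036 for miR-125b-5p. For miR-365 and miR-194 they were 0.19 and 0.65. Among those that ran opposite they were -0.80 for let-7e, -0.28 for miR-21, -0.74 for miR-705, -0.31 for miR-125a-5p and -0.52 for miR-223. miR-194 moved little in all, from 10.17 ± 0.13 to 10.39 ± 0.05 (SD, n = 4 each).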

How the data were processed

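For each Agilent mouse miRNA array 100 ng of liver RNA was labelled with Cy3, per the labels. Replicates were taken as separate animals. The title of db/+ replicate 1 speaks of livers in the plural, so whether that array held 1 animal cannot be told from its title. db/+ numbers 1 and 2 only name arrays. Per the file headers, Feature Extraction 9.5.3.1 made the spot intensity, which has its background subtracted and is unscaled between arrays. The flags for detection, background, saturation and outliers are another kind of value, 0 or 1, per the file headers. A deposited value table for the 8 arrays repeats the scanner files' raw median intensity of every spot (12493 per array), with array medians of 95.5 to 148. The authors deposited a score per miRNA for 139 miRNAs, global median normalized and log transformed per the series text; converted to log2, it was taken as of base 20, the most common base on each array when set against the scanner signal, so those folds rest on that estimate.

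Control spots and outlier spots (3.4% to 4.8%) were left out, and 0 miRNA spots were saturated. Spots, then probes, were averaged. Arrays were scaled by the median signal of the 89 miRNAs that all 8 arrays detected, floored at 4.59 and taken to log2. Tested were miRNAs that every array of db/+, or every array of db/db, detected. limma 3.58.1 in R 4.3.3 (lmFit, eBayes, two-sided, strain as the only term, Benjamini-Hochberg over the 127) was tested on simulated data. The SE of an arm is limma's, and that of the arm ratio comes from the 4 values per strain. The R package data.table (version 1.17.8) read the files, and matplotlib 3.10.9 drew the plots. Alternatives changed the scaling, floor, background, values, probe summary, filter, test and arrays. The members and lists were chosen with earlier results of these data known. The rule allowed up to 4 miRNAs per list by smallest p, the 5 most and 5 least like miR-31, and neighbours within 1 megabase; of the lists, those past the threshold and the nearest to it were named.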

Additional observations from a re-analysis of the deposited data

Results flagged for a closer look

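The log2 ratio of miR-31 over miR-31* in db/+ had 1 array far from the others: db/+ replicate 4 at 3.67, with the other 3 at 2.05 to 2.32. Its gap to the nearest array was 0.832 of the range of the strain, just over the critical value of Dixon's test for 4 values. On that array miR-31* was not detected and stood at the floor, so the ratio there follows from the floor and was not measured. 14 groups of 4 arrays were examined in this way (the levels of both arms, their ratio and the 4 probes, in each strain), and chance marks about 1 in 20.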

How the results depend on the processing

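Of 24 other settings, 22 left the difference of miR-31 within 1 SD of the value given and 20 that of miR-31*. The SD was each arm's own, pooled from 0.17 (db/+) and 0.28 (db/db) for miR-31 and from 0.85 and 0.32 for miR-31*. The limit was thus wider for miR-31*, and these counts do not compare the stability of the arms. The arm ratio kept its direction in 17 and turned in 7. Without scaling miR-31* had 0.74, the arm ratio 0.32 and the correlation of let-7e with miR-31 was 0.65, and 0 miRNAs were called, 0 of them in the lists. With the higher floor miR-31* had 0.20, the arm ratio 0.90, and 12 miRNAs were called, 3 in the lists. normexp gave 0.37 for miR-31, -0.45 for miR-31*, 0.82 for the arm ratio, 2 calls, 0 in the lists, and turned miR-214 (-0.64), miR-200b (-0.31), miR-203 (-0.028), miR-140* (-0.014) and miR-378* (-0.44). The raw medians gave 0.44, -0.18 and 0.62, with 1 call, 0 in the lists, and -0.34, -0.090 and -0.18 for miR-214, miR-200b and miR-378*. By construction normexp adds an offset of 50 to each spot and the raw medians keep the background. miR-31 had only 12.3 on the dimmest array. What part this had in those values was not tested, nor was the cause in the other settings. The arm ratio also turned without db/+ replicate 4 (0.070, the range over single arrays left out being -0.47 to 0.070), without db/+ replicates 1 and 4 (0.087) and without db/+ replicates 2 and 4 (0.13), the last chosen after the data were seen. With 1 array left out miR-31 ranged from 0.97 to 1.19 and miR-31* from 0.98 to 1.64. Calls then ranged from 11 (without db/db replicate 2) to 20, with 12 without db/db replicate 3, and list members called from 2 to 6, being 2 without db/+ replicate 2 or db/db replicate 2 and 3 without db/db replicate 1 or 3. Other counts were 6 calls, 2 in the lists, with the deposited scores, 4 and 0 with no filter, 42 and 9 with array weights, 12 and 3 without db/+ replicates 1 and 4, and 33 and 10 without db/+ replicates 2 and 4; quantile normalization called 3 in the lists. SAM, which the series names, called 18 of 127. With the replicate block on numbers 3 and 4, the ones that titles of both strains share, 8 miRNAs were called, 1 in the lists, and miR-31, at 1.07, was not among them; deviations of same-numbered arrays correlated at -0.08 and 0.44, so the numbers were not taken as pairs. Dim signal on db/+ replicates 2 and 4 limits every value of miR-31*.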
